A study of Mus musculus with 5 samples.

Results

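The interferon regulatory factors are a family of transcription factors, and the 8 genes described here are Irf1, Irf2, Irf3, Irf4, Irf5, Irf7, Irf8 and Irf9. Every probe set that the platform annotation gives to 1 of these genes alone was taken, which made 14 probe sets among 45037 on the array. Of these, 12 passed the filter on dim probe sets, and each of the 8 genes kept at least 1. The values are log2 intensities on 5 Affymetrix arrays of LT-HSCs, the blood stem cells able to repopulate a recipient for the long term, sorted from mice.

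The knockout group held 3 arrays of LT-HSCs from mice with both Zbtb7a alleles floxed (Zbtb7a Flox/Flox Mx1-Cre+). Zbtb7a encodes the transcription factor LRF. The control group held 2 arrays from mice with 1 floxed and 1 normal allele (Zbtb7a Flox/+ Mx1-Cre+), so the controls also carried Cre and could lose an allele. All animals were C57BL/6 aged 4 weeks and received 2 injections of 250 µg of the double-stranded RNA analogue pIpC. Cells were taken 9 days after the first injection by a gate for Sca-1, Kit and CD150 that left out cells with lineage markers, IL7Ra, Flt3 or CD48. The Mx1 promoter that drives Cre is itself switched on by interferon, and it does so in many cell types. No group without pIpC was analysed, so what the injections did to these genes cannot be seen. The description of knockout replicate 3 joins 2 animal numbers and the other descriptions give 1 each, so p-values measure the spread between arrays, which need not all be single mice.

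Interferon regulatory factors share a DNA-binding domain at the amino terminus that reads GAAA repeats. In the textbook course, double-stranded RNA activates IRF3 and then IRF7, which switch on type I interferon genes. Secreted interferon then acts through its receptor to assemble ISGF3, a complex that contains STAT2 and IRF9 and binds the interferon-stimulated response element (ISRE) of antiviral genes and of Irf7 itself. IRF1 activates and IRF2 restrains an overlapping set of genes, and in mice loss of Irf2 lets interferon signalling drive stem cells out of quiescence. IRF4 and IRF8 act mainly in lymphoid, dendritic and myeloid cells together with partners such as PU.1, and IRF5 acts below Toll-like receptors.

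Promoter letters are shown for the members with a match to either of the 2 elements searched, for Irf7, the member with the clearest group separation, and for 2 ISGF3 target genes as a comparison. The ISRE core was searched as GAAANNGAAA and the STAT element (GAS) core as TTCNNNGAA, both on both strands, in RefSeq windows of 300 bases (250 before to 50 after a transcript start, GRCm38.p6). Matches are in capitals, and every stretch is read 5′ to 3′ on the strand of its gene.
Irf1, chr11:53769909-53769947, plus strand: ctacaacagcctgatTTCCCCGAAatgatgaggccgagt
Irf8, chr8:120736172-120736228, plus strand: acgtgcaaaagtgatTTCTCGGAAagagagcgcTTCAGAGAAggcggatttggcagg
Irf2, chr8:46739495-46739544, plus strand: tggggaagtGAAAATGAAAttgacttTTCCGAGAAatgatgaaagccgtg
Irf7, chr7:141266425-141266504, minus strand: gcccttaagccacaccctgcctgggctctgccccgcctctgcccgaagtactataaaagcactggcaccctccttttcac
Ifit1, chr19:34640770-34640828, plus strand: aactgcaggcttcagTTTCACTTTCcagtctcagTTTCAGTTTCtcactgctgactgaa
Oas3, chr5:120777710-120777749, minus strand: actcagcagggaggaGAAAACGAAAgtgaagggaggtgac

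The 8 members had 11 windows, since Irf1, Irf8 and Irf9 each have several annotated starts. A GAS core stood in 3 of these 11 windows, those of Irf1, Irf2 and Irf8, against 8.3% of all 32851 windows. In Irf1 it lay 90 to 82 bases before the start, and Irf8 held a pair in 1 of its windows. An ISRE core stood in 1 of 11 member windows, that of Irf2, against 3.44% of all windows. Among ISGF3 target genes it stood in 7 of 13 windows. The ISRE and GAS matches overlapped in 24 of the 32851 windows and in none of the members. Neither set of letters occurred in the Irf7 window. These are matches of letters, and binding was not measured.

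On these arrays the members did not move as a block. On brightest probe sets, knockout replicate 1 had the highest values of Irf7, Irf9 and Irf1, and knockout replicate 2 those of Irf8, Irf4 and Irf5. The other Irf5 probe set was lowest in knockout replicate 2. Irf2 and Irf3 had no array at least 0.5 above or below the rest, with ranges over the arrays of 0.52 and 0.58 on their brightest probe sets. No member passed the test: limma, with Benjamini-Hochberg adjustment over 27022 probe sets, called 0 of 12 member probe sets and 0 of all probe sets (0%). At an unadjusted p under 0.05 it gave 0 member probe sets and 306 of all 27022. Every member probe set tested had an adjusted p of 1.

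**Figure D1:**
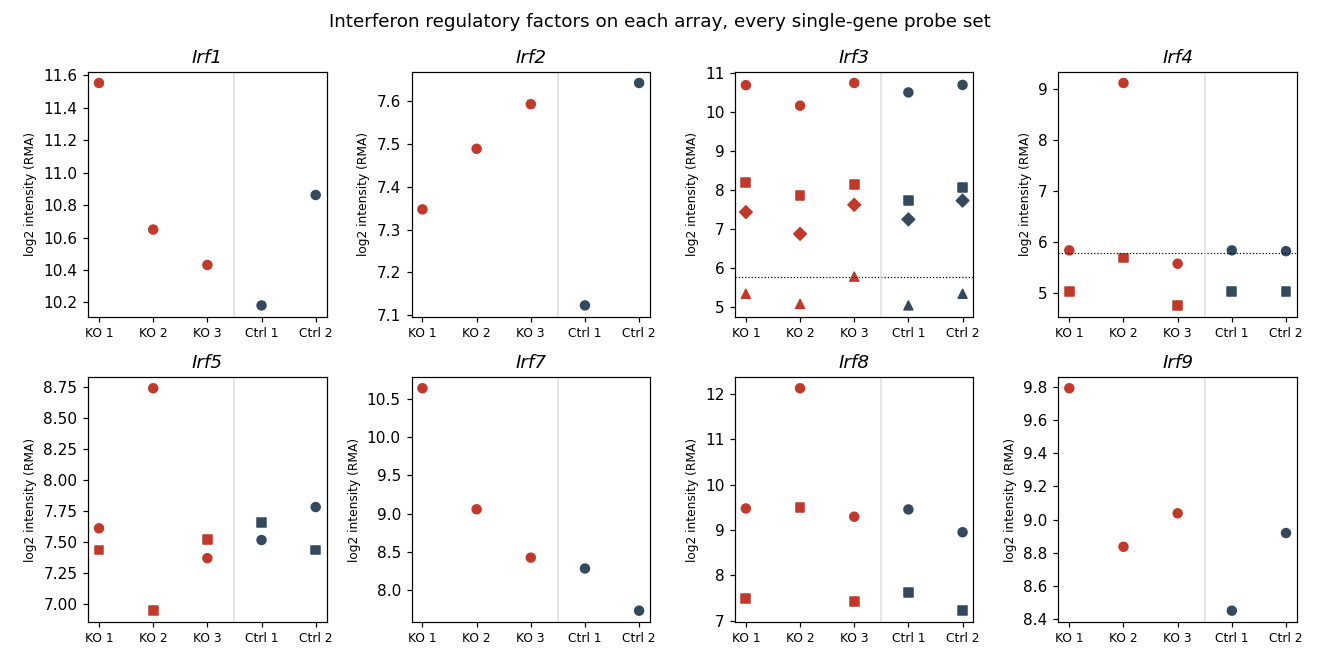
Log2 RMA intensity (vertical axes, each on its own scale) of every single-gene probe set of the 8 members on the 3 knockout arrays (KO, red) and the 2 control arrays (Ctrl, dark blue). Marker shapes run from circle (brightest probe set) through square and diamond to triangle, and the dotted line, drawn where it falls in range, is the filter level of 5.77. Irf7 alone has all 3 knockout arrays above both controls.

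Groups did not overlap for 1 of the 8 members on its brightest probe set, Irf7, which was higher on all 3 knockout arrays (12.5%, against 2.68% of 12813 genes). Over single probe sets this was 1 of 12 tested, against 3.61% of 27022. No member was lower on all 3 knockout arrays, against 4.5% of genes. The members' median log2 difference, knockout minus control, was 0.45, beside -0.030 over all genes tested, and 7 of 8 differences were positive on brightest probe sets. Of the 7, Irf4 turned negative without knockout replicate 2 (-0.12) and Irf2 without control replicate 1 (-0.17). Irf5 also turned without knockout replicate 2 (-0.16), and its other tested probe set was at -0.25. The count therefore does not show a rise of the whole family. An array that stands at least 0.5 above the next one was looked for as well. Knockout replicate 1 was such an array for 3 of 8 members (37.5%, against 0.913% of genes) and knockout replicate 2 for another 3 (37.5%, against 8.51% of genes), of which Irf4 passed the filter only through that array. Irf5 is counted here by its brighter probe set, and knockout replicate 2 was the lowest array on its other one. This lead of 0.5 was chosen after the values were seen and describes single arrays, not the groups. With single arrays left out, the number of members with all knockout arrays above all controls was 1 to 4. It was 4 without control replicate 2 (Irf1, Irf2, Irf7 and Irf9, against 15.1% of genes), and 2 without knockout replicate 2 (Irf7 and Irf9, against 13.9% of genes). It was also 2 (Irf7 and Irf8) without knockout replicate 3, against 6.92% of genes, and without control replicate 1, against 16.4% of genes.

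Median log2 intensities of the arrays were 6.38 to 6.403, a likeness that RMA imposes and that does not speak for the arrays. Knockout replicate 2 was unlike the rest: over 45037 probe sets it correlated with them at 0.945 to 0.970, and the remaining pairs at 0.977 to 0.990. The targeted gene did not tell the groups apart on any of its 3 probe sets, and the deposited files do not say whether their probes lie in the deleted part. The brightest Zbtb7a probe set read 8.72, 8.33 and 9.06 in knockouts, against 8.22 and 8.36 in controls, and another read 7.97, 8.52 and 7.70 in knockouts, against 8.62 and 8.22 in controls. Of 14 long-term stem cell markers tested, 14 were lowest on that array by at least 0.5 (against 15.1% of genes), and their mean level was 7.83 there and 9.93 and 10.24 on the other knockout arrays, against 9.68 and 10.58 in controls. Tek, 1 of these markers, read 5.04 on that array, under the filter level of 5.77. In bulk RNA, fewer cells of a type and less RNA per cell cannot be told apart.

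Irf7, the factor that amplifies type I interferon production and is itself induced by interferon, gave the widest group difference. It read 10.64, 9.06 and 8.42 on knockout arrays 1, 2 and 3, against 8.28 and 7.73 on control arrays 1 and 2. The groups did not overlap, although knockout replicate 3 lay closer to control replicate 1 than the controls did to each other (0.55 apart). The means were 9.37 ± 1.14 (SD, n = 3) in knockouts and 8.01 ± 0.39 (SD, n = 2) in controls, a log2 difference of 1.37 (SE 0.71, 95% interval -0.50 to 3.23) or 2.58-fold. The limma p was 0.116 before adjustment, and an exact two-sided permutation test gave p = 0.2, where the smallest possible is 0.1. Without knockout replicate 1 the difference was 0.73.

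Irf9, the DNA-binding subunit of ISGF3, read 9.79, 8.84 and 9.04 on knockout arrays 1 to 3, against 8.45 and 8.92 in controls. Control replicate 2 lay between knockout replicates 2 and 3, so the groups overlapped. The difference was 0.54 (SE 0.35, 95% interval -0.39 to 1.46; exact two-sided permutation p = 0.4), and 0.25 without knockout replicate 1 or 0.30 without control replicate 1.

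Irf1, an activator induced by interferons, read 11.55, 10.65 and 10.43 in knockouts, against 10.18 and 10.86 in controls. Knockout replicate 1 was the highest array, but control replicate 2 exceeded knockout replicates 2 and 3. The controls differed from each other by 0.68, more than the group difference of 0.36 (SE 0.43, 95% interval -0.77 to 1.48; exact two-sided permutation p = 0.6). That difference was 0.018 without knockout replicate 1, 0.015 without control replicate 1 and 0.70 without control replicate 2.

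Over the 5 arrays Irf1 and Irf9 had the most similar values of any pair of members. After each gene was centred on its own mean, they differed by 0.18 (root mean square, log2). Irf7 differed by 0.70 from Irf9 and by 0.72 from Irf1. In knockout replicate 1 all 3 lay above the control mean, Irf7 by 2.63, Irf9 by 1.10 and Irf1 by 1.03. Irf7 and Irf1 also differed in the controls: Irf7 was 0.55 lower in control replicate 2 than in control replicate 1, and Irf1 0.68 higher.

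**Figure D2:**
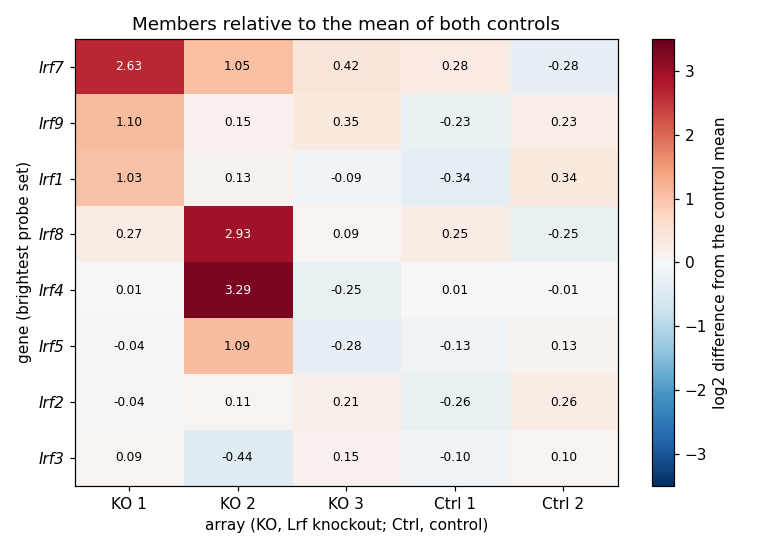
Log2 difference of each member's brightest probe set from the mean of both controls (colour and printed value) on the knockout arrays (KO) and the control arrays (Ctrl). Irf7, Irf9 and Irf1 have their highest value in knockout replicate 1 (2.63, 1.10 and 1.03), and Irf8, Irf4 and Irf5 in knockout replicate 2 (2.93, 3.29 and 1.09).

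Irf2, the restraining counterpart of Irf1, read 7.35, 7.49 and 7.59 in knockouts, against 7.12 and 7.64 in controls. All 3 knockout values lay between both controls. The difference was 0.094 (SE 0.21, 95% interval -0.47 to 0.65). Its sign turned without control replicate 1 (-0.17) and with array weights (-0.0038).

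Irf3, the constitutive factor that is activated by phosphorylation rather than by new transcription, had 4 probe sets. The brightest read 10.69, 10.16 and 10.75 in knockouts, against 10.50 and 10.70 in controls, a difference of -0.066 (SE 0.24, 95% interval -0.69 to 0.55). Its sign turned without knockout replicate 2 (0.12), without control replicate 2 (0.030) and with array weights (0.085). The others differed by 0.15, -0.18 and 0.21, the last below the filter, so the 4 probe sets did not share a direction. Knockout replicate 2 was the lowest array on 2 of the 4, at 10.16 and 6.87. Probe sets with _x_at in their name, like the brightest one of Irf3, can share probes with similar transcripts.

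Irf8, which directs monocyte, dendritic and B cell development, read 12.13 in knockout replicate 2, and 9.47 and 9.29 in knockout replicates 1 and 3, against 9.45 and 8.95 in controls. The second probe set had the same order of knockout arrays, with 9.49 in knockout replicate 2, and 7.48 and 7.41 in the others, against 7.61 and 7.22 in controls. Knockout replicates 1 and 3 thus lay near or between the controls on both probe sets. The differences were 1.10 (SE 0.97, 95% interval -1.44 to 3.63; exact two-sided permutation p = 0.6) and 0.71 (SE 0.72). Without knockout replicate 2 they were 0.18 and 0.031.

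Irf4, a factor of activated lymphocytes and plasma cells, read 9.11 in knockout replicate 2 on its brighter probe set, and 5.83 and 5.57 in knockout replicates 1 and 3, against 5.83 and 5.81 in controls. The 4 arrays other than knockout replicate 2 averaged 5.76, under the filter level of 5.77, so this probe set passed the filter through 1 array. On the dimmer probe set, left out by the filter, knockout replicate 2 was again the highest array, at 5.68, with 5.02 and 4.75 in the other knockouts, against 5.02 in both controls. The difference on the brighter probe set was 1.02 (SE 1.19), and -0.12 without knockout replicate 2. Equal values on 2 or more arrays, which occurred in 4 of the 14 member probe sets, stand as deposited.

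Irf5, which acts below Toll-like receptors in myeloid and B cells, had 2 probe sets that disagreed. The brighter one read 8.74 in knockout replicate 2, and 7.61 and 7.37 in the other knockouts, against 7.52 and 7.78 in controls. The other read 6.95 in knockout replicate 2, its lowest array, and 7.44 and 7.52 in the other knockouts, against 7.66 and 7.44 in controls. Their differences were 0.26 (SE 0.46) and -0.25 (SE 0.23), and the brighter one was -0.16 without knockout replicate 2 and -0.040 with array weights. No direction is given for this gene.

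**Figure D3:**
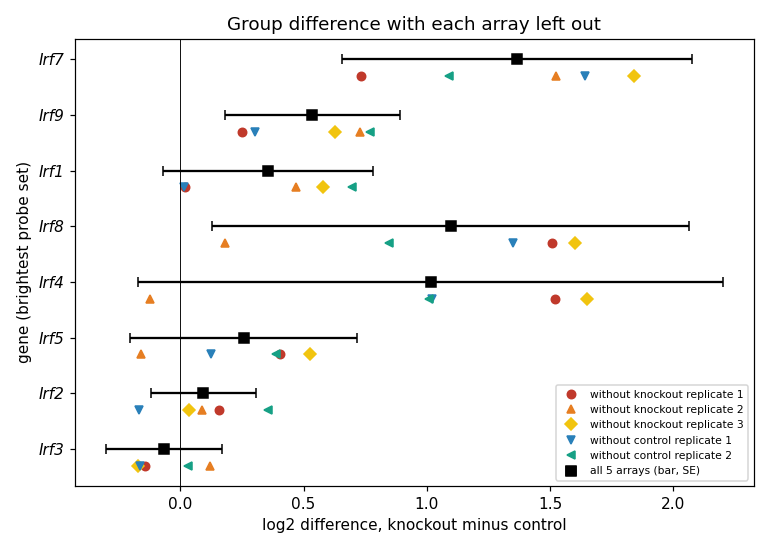
Log2 difference, knockout minus control, of each member's brightest probe set (squares, bars show SE) and the same difference with 1 array left out (coloured markers). Irf7 and Irf9 are lowest without knockout replicate 1 (0.73 and 0.25), and Irf8 (0.18) and Irf4 (-0.12) without knockout replicate 2.

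The pathway around the members was read from lists of genes by role. None of their genes was called by limma. Interferon receptor, kinase and STAT genes had 9 members tested, with a median difference of 0.032 beside -0.030 for all genes. With single arrays left out this median ran from -0.055 (without knockout replicate 2) to 0.17 (without control replicate 2). The type I receptor genes Ifnar1 (0.18) and Ifnar2 (-0.016) and the kinase genes Jak1 (0.032) and Tyk2 (-0.040) differed by less than their SE of 0.17 to 0.28. Stat2, the ISGF3 subunit, read 8.03, 6.73 and 7.14 in knockouts, against 6.45 and 6.75 in controls, with a difference of 0.70 (SE 0.43). Like Irf9, it was highest in knockout replicate 1, and its groups overlapped. Ifngr1, a receptor chain for interferon gamma, was the 1 gene of these 9 with groups that did not overlap (11.1% higher in knockouts, against 2.68% of genes), at 9.94, 10.05 and 9.76 in knockouts, against 9.34 and 9.48 in controls (difference 0.51, SE 0.16, limma adjusted p = 1). The other chain, Ifngr2, did not share this order, at 7.09, 10.32 and 6.81 in knockouts, against 8.41 and 8.20 in controls (difference -0.23, SE 1.17).

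Of the interferon genes themselves, 3 of 6 with a probe set passed the filter, and the groups of these 3 overlapped. Ifnb1 read 5.69, 5.68 and 5.53 in knockouts, against 5.53 and 5.39 in controls, all below the filter level. Ifng, also left out by the filter, read 7.403 in knockout replicate 2 and 4.11 in both other knockouts, against 3.91 and 3.97 in controls. Its groups barely parted, since all arrays but knockout replicate 2 lay far below the filter level. Of genes past the filter, 2.68% were higher on all 3 knockout arrays.

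Sensors, adaptors and kinases that act before the IRFs had 15 genes tested and a median difference of 0.078, which was -0.093 without control replicate 1 and 0.21 without control replicate 2. Groups did not overlap for 5 of them, 3 higher and 2 lower in knockouts, against 2.68% and 4.5% of genes. Tlr9, on the higher side, barely parted them, at 7.721, 7.83 and 7.721 in knockouts, against 7.716 and 7.58 in controls. So did Ticam1, on the lower side, at 6.90, 7.065 and 6.90 in knockouts, against 7.12 and 7.071 in controls. The RNA sensor gene Ddx58 read 10.89, 9.95 and 9.71 in knockouts, against 9.50 and 9.64 in controls. Dhx58, a regulator of the same sensors, read 9.64, 7.78 and 8.19 in knockouts, against 7.58 and 7.53 in controls. Mavs, the mitochondrial adaptor of these sensors, was on the lower side, at 8.90, 8.71 and 9.11 in knockouts, against 9.27 and 9.35 in controls (difference -0.40, SE 0.18). The kinase gene Tbk1, whose product phosphorylates IRF3, differed by 0.12 (SE 0.16). Feedback inhibitors and cofactors had 10 genes tested and a median difference of 0.079. Usp18, which turns off the type I receptor, read 11.42, 8.51 and 8.51 in knockouts, against 7.53 and 7.999 in controls. It was the 1 gene of these 10 with groups that did not overlap (10%, against 2.68% of genes). Socs1, another inhibitor, differed by 0.031.

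ISGF3 target genes had 13 members tested, all 13 with positive differences and a median of 1.20, beside -0.030 for all genes. Of these, 5 had all knockout arrays above both controls (38.5%, against 2.68% of genes). Mx1 read 10.77, 7.30 and 7.14 in knockouts, against 5.47 and 6.32 in controls. Knockout replicate 1 led by at least 0.5 in 11 of the 13, against 0.913% of all genes. Set against the mean of both controls, the median target gene stood at 2.11 in knockout replicate 1, 0.77 in knockout replicate 2 and 0.31 in knockout replicate 3, the order of the knockout arrays for Irf7 too (2.63, 1.05 and 0.42). Without knockout replicate 1 the list's median difference was 0.31. It was 0.85 with the probe sets of each gene averaged and 1.89 with array weights. In the controls the list and Irf7 went opposite ways: the median target gene was 0.39 higher in control replicate 2 than in control replicate 1, and Irf7 0.55 lower.

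IRF1 target genes, mainly of antigen processing, had 12 members tested, a median difference of 0.23 and none with groups that did not overlap. Here the controls stood apart: the median gene was 0.91 higher in control replicate 2 than in control replicate 1. Set against the mean of both controls, the median gene stood at 0.90, -0.14 and 0.028 in knockout replicates 1, 2 and 3, against 1.03, 0.13 and -0.091 for Irf1. The list median difference was -0.18 without control replicate 1 and 0.023 without knockout replicate 1. It was 0.18 with the probe sets of each gene averaged and 0.78 with array weights.

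**Figure D4:**
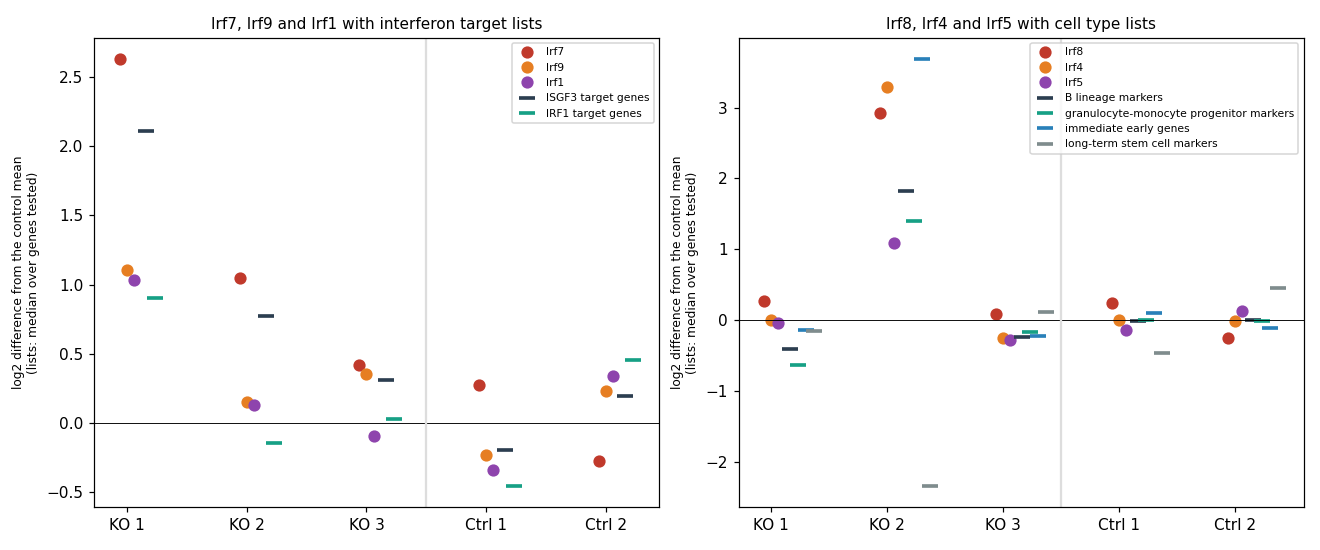
Log2 difference from the control mean on each array for 3 members a panel (circles) and, for gene lists, the median over the genes tested (bars). On the left, Irf7 and the ISGF3 target genes are highest in knockout replicate 1 (2.63 and 2.11), and Irf1 and the IRF1 target genes stand higher in control replicate 2 than in control replicate 1. On the right, knockout replicate 2 has Irf8 and Irf4 at 2.93 and 3.29, B lineage markers at 1.82, immediate early genes at 3.68 and long-term stem cell markers at -2.34.

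Knockout replicate 2 was highest for Irf8, Irf4 and the brighter Irf5 probe set, and other marker lists followed it to unlike degrees. Of all genes tested, 8.51% were highest on that array by at least 0.5. B lineage markers had 10 of 11 tested genes highest on that array by at least 0.5, with a mean list level of 9.34 there and 6.88 and 6.95 in the other knockouts, against 7.35 and 7.27 in controls. Granulocyte-monocyte progenitor markers had 8 of 9, with a mean level of 11.94 there and 9.76 and 10.33 in the other knockouts, against 10.59 and 10.49 in controls. Dendritic cell markers had 5 of 10, with a mean level of 8.80 there and 8.46 and 7.51 in the other knockouts, against 7.60 and 7.62 in controls. T and natural killer markers had 3 of 8, at 8.09 there and 7.41 and 6.83 in the other knockouts, against 6.50 and 6.81 in controls. Immediate early genes, which respond quickly to stimuli and handling, had 13 of 13, at 11.44 there and 7.82 and 7.64 in the other knockouts, against 8.07 and 7.85 in controls. Macrophage markers had 1 of 14, Csf1r, at 13.19 there and 9.98 and 10.90 in the other knockouts, against 12.43 and 11.09 in controls. Of the macrophage markers, 10 of 14 were lower on all 3 knockout arrays (71.4%, against 4.5% of genes), with a mean level of 8.30, 8.65 and 9.54 in knockouts, against 10.80 and 9.89 in controls. Among the genes counted as highest in knockout replicate 2, Ebf1, Blk, Cd209a and Klrd1 averaged under the filter level of 5.77 on the remaining arrays. They passed the filter only through knockout replicate 2, so the B lineage, dendritic cell, and T and natural killer counts and levels rest partly on that selection. The part of other cells in the Irf8, Irf4 and Irf5 values was not tested.

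Partner factors of IRF4 and IRF8 had 10 genes tested, a median difference of 0.022 (-0.10 without knockout replicate 2 and 0.098 without knockout replicate 1) and none with groups that did not overlap. Spib, a relative of PU.1 in B and plasmacytoid dendritic cells, read 9.69 in knockout replicate 2, and 5.96 and 5.98 in the other knockouts, against 6.20 and 6.14 in controls. Spi1, which encodes PU.1, read 8.24, 10.15 and 8.67 in knockouts, against 9.30 and 9.03 in controls. Ikzf3, a lymphoid zinc finger factor, was 7.47, 8.58 and 5.60 in knockouts, against 5.86 and 5.04 in controls, and Batf3, a partner in dendritic cells, stood at 6.34 to 6.47 on every array. Over the 10 genes, knockout replicate 2 was highest by at least 0.5 for 4 (against 8.51% of genes). It was lowest by that margin for 1, Etv6 (against 15.1% of genes). Etv6 read 11.95, 10.88 and 11.78 in knockouts, against 11.82 and 12.53 in controls.

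For the 3 members with the widest range over the arrays, the 5 genes with the most similar centred values were taken from 12812 others, as a description without a test. Irf7 (range 2.91) was nearest to Icos, a T cell costimulator (root mean square difference 0.13), then to Slfn5 (0.20), Cmpk2 (0.23), Ddx60 (0.26) and Oas2 (0.34). Cmpk2 and Oas2 belong to the ISGF3 target list. Irf8 (range 3.18) was nearest to Adam19, a metalloprotease (0.14), Hcar2, a niacin receptor (0.16), Cd300ld (0.16), Il10ra, an interleukin 10 receptor chain (0.16), and Il1rn, an interleukin 1 antagonist (0.17). Irf4 (range 3.55) was nearest to E330020D12Rik (0.13), Cap1 (0.14), Spib (0.14), Ahnak (0.16) and Tpm4 (0.17). The nearest genes of Irf8 and Irf4 were all highest in knockout replicate 2, which follows from picking them for likeness to these members. Adam19 and E330020D12Rik, like Irf4, averaged under the filter level of 5.77 on the remaining arrays. They were among the genes compared only through knockout replicate 2. Irf8 and Irf4 differed from each other by 0.29.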

How the data were processed

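The authors deposited 1 log2 intensity for each probe set on each array. The submitters' processing notes name RMA and Affymetrix Expression Console, without versions. RMA forces all arrays to one distribution and compresses dim and bright values. The labels' protocols give 2 rounds of in vitro transcription, which favours 3' ends. Of 45101 rows, 64 control probe sets were left out, then the 40% of probe sets with the lowest mean (under 5.77). Genes were named from the platform annotation, 1 probe set a gene (highest mean), leaving 12813 genes. Precision is limited by having 5 arrays.

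Knockout was compared with control across all 27022 probe sets in limma 3.58.1 under R 4.3.3 (lmFit, eBayes, no covariate, two-sided, Benjamini-Hochberg, threshold 0.05), with a fit checked on simulated data. SE and 95% intervals are from this fit. Exact permutation tests had 10 splits. Of 189 entries in 15 lists (members included), 172 were matched to a single-gene probe set, by symbol or by a synonym, and 159 passed the filter. The entry Chuk was matched in this way to a probe set annotated as Fbxo24, which lay below the filter. Genes without such a probe set were not analysed here. Named genes were the members, fixed pathway genes, list members of smallest p, brightest markers and nearest patterns; Ifng, Tbk1, Spib, Csf1r, Batf3 and Ikzf3 were partly chosen after their values were seen. The members and lists were chosen with earlier results of these data known. Promoter windows are RefSeq's (GRCm38.p6). Figures used matplotlib 3.10.9.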

Additional observations from a re-analysis of the deposited data

How the results depend on the processing

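Under each alternative (another eBayes prior, no filter, the lowest 60% left out, array weights, cyclic loess, median centring, the replicate block, averaging the probe sets of each gene, and each array left out), limma called 0 member probe sets and 0 genes of the pathway lists, and in those run over all probe sets it called 0 of these. In the settings that left out no array by name, 88 of 91 member differences kept their sign. Another eBayes prior or filter leaves a difference of means as it is, so those settings could not turn one. The replicate block, counted among the 91, in effect drops knockout replicate 3. The 3 that turned, all with array weights, were the brightest probe sets of Irf2 (-0.0038), Irf3 (0.085) and Irf5 (-0.040). Array weights also moved Irf7 to 2.34, Irf9 to 0.995, Irf1 to 0.88, Irf8 to 0.31 (second probe set 0.10), Irf4 to 0.053, the other tested Irf3 probe sets to 0.27 and -0.045, and the other Irf5 probe set to -0.11. With single arrays left out, 52 of 60 differences kept their sign. The ranges were -0.17 to 0.35 for Irf2, -0.17 to 0.12 for the brightest Irf3 probe set, -0.021 to 0.33 and -0.42 to 0.063 for the others tested, -0.12 to 1.65 for Irf4 and -0.16 to 0.52 for Irf5. The cause was not tested. Irf7 ranged from 0.73 to 1.84, Irf9 from 0.25 to 0.77, Irf8 from 0.18 to 1.60 and Irf1 from 0.015 to 0.70. Counts with all knockout arrays above all controls, added after the data were seen, ranged with single arrays left out from 1 to 4 of 8 members, from 5 to 8 of 13 ISGF3 targets and from 605 to 2095 of 12813 genes (344 with all arrays); fewer arrays make such a split easier to meet. The labels do not say that replicate numbers pair the arrays, and deviations of same-numbered arrays correlated at -0.54 and -0.57 over 27022 probe sets. The third knockout array has no partner, and with the replicate block the differences were those of the fit without it, 1.84 for Irf7, and 0 calls. Signals near the filter level of 5.77, as for Irf4 outside knockout replicate 2, limit the size of a difference.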

Other observations

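Cofactors named for IRF2 were measured beside the members. Irf2bp2, a corepressor, read 10.93 in knockout replicate 2, and 9.60 and 9.67 in the other knockouts, against 10.02 and 9.22 in controls, a log2 difference of 0.44 (SE 0.52). Irf2bp1 read 8.21, 8.05 and 8.24 in knockouts, against 8.24 and 8.61 in controls. Neither was called by limma (adjusted p = 1 for both), and both overlapped between the groups.

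MHC class II genes, whose transactivator gene Ciita is on the IRF1 target list, had another order of arrays than Irf1. H2-Aa read 12.78, 12.34 and 10.72 in knockouts, against 10.91 and 11.09 in controls, so knockout replicates 1 and 2 stood above the remaining arrays. Cd74, the invariant chain, had the same pair on top, at 9.92 and 10.65 with 7.90 in knockout replicate 3, against 8.69 and 8.19 in controls. Ciita itself differed by 0.13 (SE 0.18) and Irf1 was high in knockout replicate 1 alone of these 2 arrays.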
